A study of Homo sapiens with 6 samples.

Results

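The genes described are 10 regulators, several of them known for regulated splicing of their own transcripts: the kinases CLK1, CLK2, CLK3, CLK4, SRPK1 and SRPK2, the O-GlcNAc enzymes OGT and OGA, the p53 inhibitor MDM4, and the cyclophilin NKTR. They were chosen by symbol in the platform's probe-to-gene annotation, taking the brightest feature of a gene by its mean value, and they are 10 of 33616 genes tested. Each had 1 feature under its current symbol, so brightness decided nothing between features. OGA had a further, dimmer feature under its older symbol MGEA5. The genes were picked with earlier results of these data known, so their p-values are descriptions of the arrays rather than independent evidence.

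The cells were Caco-2, a human colon carcinoma line that serves as a model of the intestinal epithelium. Total RNA was measured on Affymetrix arrays in 2 groups of 3, one with the genotype label NC and one labelled apoM and titled as overexpression. The meaning of NC, the vector and promoter that drove apoM, and whether the cells were 1 clone or separate cultures are not stated in the labels. The p-values therefore reflect array-to-array spread alone, which could be technical. All values are log2 expression as the authors deposited it, with array medians from 4.48 to 4.53; the number of arrays limits the precision, and signal over background was not analysed here. APOM, the gene overexpressed, averaged 5.88 ± 0.51 (SD, n = 3) in NC and 15.63 ± 0.19 (SD, n = 3) with apoM. All 3 apoM arrays lay above all NC arrays, and an exact two-sided permutation test gave p = 0.1, the smallest that 3 arrays against 3 allow. Of 10 colon epithelial markers, 9 lay above the median gene, EPCAM and KRT8 among them at the 99.6 and 99.8 percentiles, while LGALS4, a galectin of the gut epithelium, lay at the 21.4 percentile. Fibroblast, leukocyte and endothelial markers lay at median percentiles of 46.6, 57.8 and 41.4. None of the 29 markers in the 4 lists passed the test, but only 2.06% of all genes did, so this says little. Of the 10 colon markers, KRT18 (change 0.61) and KRT8 (0.48) lay higher on all apoM arrays and EPCAM (-0.02) lower. Over all genes 17.3% lay higher and 7.08% lower on all apoM arrays.

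Splicing removes introns from pre-mRNA, and SR proteins, rich in arginine and serine, help to choose which exons are kept. SRPK kinases phosphorylate SR proteins in the cytoplasm and promote their import into the nucleus, where CLK kinases phosphorylate them further and release them from storage in nuclear speckles. Several of these regulators feed back on themselves: transcripts of CLK1, CLK4 and OGT can hold back introns in the nucleus, and skipping of an exon of MDM4 yields an unstable message. Each feature here gives 1 value per gene, so retained introns and skipped exons were not analysed here and a value covers whatever transcripts its probes read. In bulk RNA, fewer cells that express a gene and less RNA per cell cannot be told apart.

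NKTR and MDM4 fell with apoM, and OGT, CLK4 and CLK2 lay lower on every apoM array without passing the test. Neither call held with p adjusted over all 135750 features (adjusted p = 0.0780 and 0.0881). NKTR was 2.31-fold lower and MDM4 2.16-fold lower. The other 5 genes, CLK1, CLK3, SRPK1, SRPK2 and OGA, overlapped between the groups. Thus 2 of the 10 genes had a limma adjusted p under 0.05 and both were lower, where 2.06% of all genes tested were called, 0.357% lower and 1.7% higher. Those shares rest on 691 calls, a count that ran from 2, without apoM overexpression replicate 1, to 2358, without NC replicate 3. The 3 apoM arrays lay below the 3 NC arrays in 5 of the 10, against 7.08% of all genes, and above them in 0 of the 10, against 17.3%. The median change of the 10 genes was -0.44 on the log2 scale and that of all genes 0.09. These shares stand side by side as a description, since the genes were chosen with results known.

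**Figure D1:**
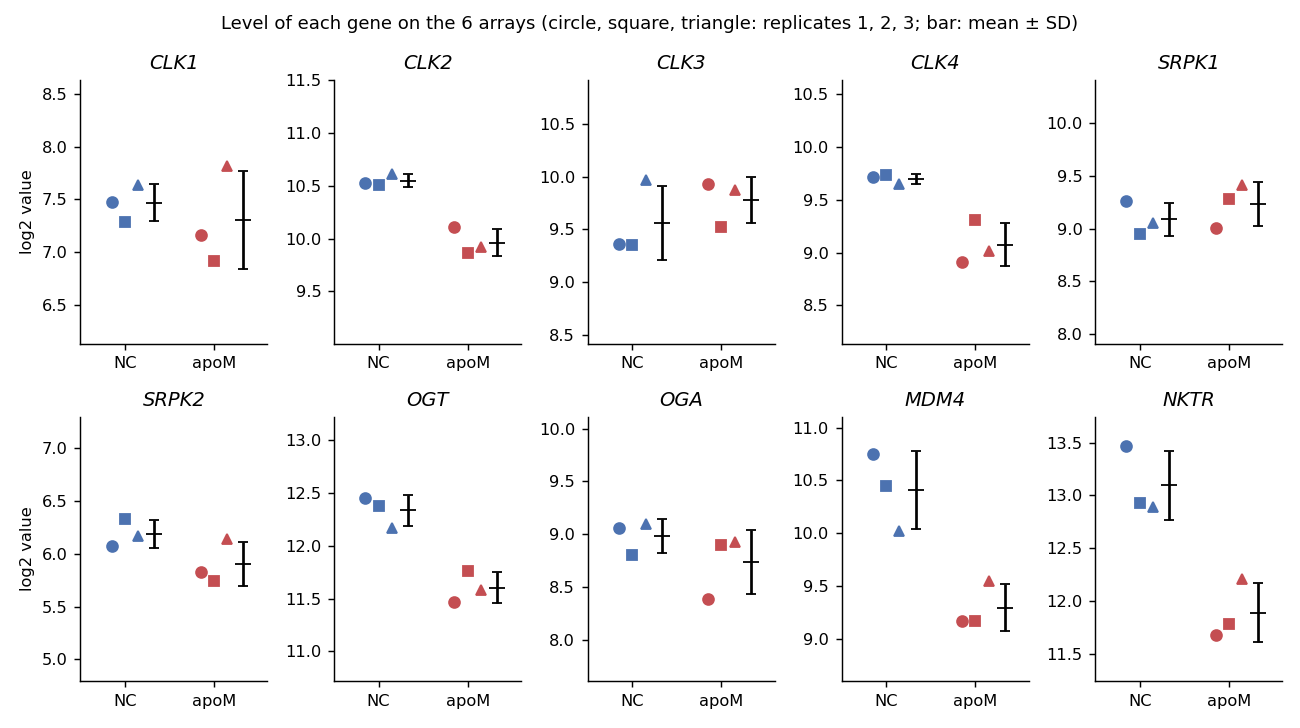
Log2 value of each of the 10 genes on the 6 arrays, NC in blue and apoM overexpression in red, with circles, squares and triangles for replicates 1, 2 and 3 and black bars for the mean ± SD of 3 arrays. All panels span the same number of log2 units; the groups lie apart for CLK2, CLK4, OGT, MDM4 and NKTR and overlap for the other 5.

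The promoters of the 5 genes whose groups lay apart are shown because these genes lay lower together on the apoM arrays. Each is the 300 bases from 250 before to 50 after the annotated start, 5′ to 3′ on the gene's strand, from RefSeq on GRCh38.p14; no source used here names the build behind the array features. Capitals mark matches on either strand to 6 short motifs: TATAAA for the box bound by TBP, CCAAT for the box bound by NF-Y, GGGCGG for the GC box, CCGGAAG for ETS factors, CACGTG for the E-box and TGACGT for CREB and ATF factors. NKTR lies at chr3:42600436-42600735 on the plus strand, MDM4 at chr1:204516156-204516455 on the plus strand and OGT at chrX:71532854-71533153 on the plus strand. CLK4 lies at chr5:178627001-178627300 on the minus strand and CLK2 at chr1:155273455-155273754 on the minus strand.
NKTR: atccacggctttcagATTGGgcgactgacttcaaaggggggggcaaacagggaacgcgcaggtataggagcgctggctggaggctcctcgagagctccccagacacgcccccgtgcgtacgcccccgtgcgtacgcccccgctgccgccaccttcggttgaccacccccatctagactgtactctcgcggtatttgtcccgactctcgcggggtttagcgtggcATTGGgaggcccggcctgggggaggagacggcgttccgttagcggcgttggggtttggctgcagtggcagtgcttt
MDM4: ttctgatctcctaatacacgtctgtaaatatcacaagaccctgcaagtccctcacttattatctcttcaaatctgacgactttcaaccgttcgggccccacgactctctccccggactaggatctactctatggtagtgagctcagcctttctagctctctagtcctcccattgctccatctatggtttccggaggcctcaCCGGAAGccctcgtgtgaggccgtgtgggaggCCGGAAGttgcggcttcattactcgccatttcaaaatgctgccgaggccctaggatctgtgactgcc
OGT: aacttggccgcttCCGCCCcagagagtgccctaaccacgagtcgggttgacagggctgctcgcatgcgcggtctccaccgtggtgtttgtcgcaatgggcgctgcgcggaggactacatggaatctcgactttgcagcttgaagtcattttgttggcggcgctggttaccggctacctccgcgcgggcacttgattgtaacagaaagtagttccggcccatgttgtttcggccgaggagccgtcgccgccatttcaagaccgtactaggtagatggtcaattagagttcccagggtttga
CLK4: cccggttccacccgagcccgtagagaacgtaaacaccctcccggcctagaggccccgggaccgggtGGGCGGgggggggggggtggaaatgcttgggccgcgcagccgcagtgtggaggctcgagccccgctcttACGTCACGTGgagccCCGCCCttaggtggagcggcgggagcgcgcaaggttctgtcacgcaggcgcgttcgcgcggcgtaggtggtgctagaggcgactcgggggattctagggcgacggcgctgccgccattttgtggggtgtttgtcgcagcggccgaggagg
CLK2: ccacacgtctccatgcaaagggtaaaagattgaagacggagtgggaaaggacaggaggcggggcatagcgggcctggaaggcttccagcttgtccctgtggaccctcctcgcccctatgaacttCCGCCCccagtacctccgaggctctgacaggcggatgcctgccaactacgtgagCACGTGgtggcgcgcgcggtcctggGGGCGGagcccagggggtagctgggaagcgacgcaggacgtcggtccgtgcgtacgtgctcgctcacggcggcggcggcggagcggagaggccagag

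No motif searched was common to all 5 of these promoters. NKTR held 2 CCAAT boxes, a motif found in 34.6% of the 35116 promoters of this length. MDM4 held 2 ETS matches, found in 10.3% of promoters. GC boxes, in 45.0% of promoters, appeared once in OGT and at 2 places each in CLK4 and CLK2. CLK4 and CLK2 each held 1 E-box, found in 7.26% of promoters, and in CLK4 the E-box overlaps a TGACGT match, found in 7.98%. All 10 genes had an entry in the promoter table, with 15 promoters among them, and 9 of the 15 held a GC box. A match is a description of these letters, not a sign that a factor binds there.

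NKTR encodes a large cyclophilin, a prolyl isomerase, with arginine- and serine-rich regions like those of SR proteins; it was first described on natural killer cells. NC replicates 1 to 3 read 13.47, 12.93 and 12.89 on the log2 scale, and the apoM replicates read 11.68, 11.78 and 12.20. NC replicate 1 was the highest array and apoM replicate 3 the highest of its group, and 0.68 log2 units separated the lowest NC array from the highest apoM array. The mean went from 13.09 ± 0.33 to 11.89 ± 0.28 (SD, n = 3), a log2 change of -1.21 (SE 0.21, 95% interval -1.68 to -0.73, limma adjusted p = 0.0310). Of all genes tested, 42 had a more negative change, 12 of them protein-coding. Its level over the 6 arrays lay at the 94.2 percentile. Over fits with 1 array left out its change ran from -1.36 to -1.02, and it still passed without NC replicate 3 (adjusted p = 0.0140) and without apoM overexpression replicate 3 (adjusted p = 0.0421). It did not pass without any one of the other 4 arrays, with adjusted p from 0.101 to 0.127 in these smaller fits.

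MDM4 encodes a relative of MDM2 that binds p53 and blocks its activity as a transcription factor. NC replicates 1 to 3 read 10.75, 10.45 and 10.02 on the log2 scale, and the apoM replicates read 9.17, 9.17 and 9.55. NC replicate 3 was the lowest NC array and apoM replicate 3 the highest apoM array, and 0.47 log2 units lay between them. The mean went from 10.41 ± 0.37 to 9.29 ± 0.22 (SD, n = 3), a log2 change of -1.11 (SE 0.21, 95% interval -1.59 to -0.64, limma adjusted p = 0.0359). Leaving out single arrays gave changes from -1.31 to -0.94. MDM4 passed in 1 of these 6 fits, without NC replicate 3 (adjusted p = 0.00821), and the adjusted p ran from 0.0572 to 0.142 in the other 5.

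MDM2, the ubiquitin ligase that marks p53 for degradation, had overlapping groups. It read 10.87, 10.36 and 10.25 in NC and 10.31, 10.13 and 10.45 with apoM, a change of -0.20 (SE 0.20, adjusted p = 0.641). The change of MDM4 was 0.91 log2 units below that of MDM2 (SE 0.12), and the per-array difference between them lay apart between the groups. This SE, like that of every pair below, comes from the spread of the per-array differences. It should not be compared with the limma SE of single genes. The exact two-sided permutation p was 0.1, the smallest possible with 3 arrays against 3, and 0.3 after adjustment over the 9 pairs of related genes compared. No pair could pass the threshold in this design.

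OGT adds N-acetylglucosamine to serine and threonine residues of nuclear and cytoplasmic proteins, and OGA removes it. OGT read 12.46, 12.38 and 12.17 in NC and 11.47, 11.76 and 11.58 with apoM on the log2 scale. All 3 apoM arrays were lower, with 0.41 log2 units between the groups, and the arrays within each group lay close together (SD 0.15 in each). The mean went from 12.34 to 11.60, a log2 change of -0.73 (SE 0.16, 95% interval -1.09 to -0.37) with a limma adjusted p of 0.0517, just short of the threshold. OGT passed with the other scalings tried: quantile normalization gave -0.81 (adjusted p = 0.0427) and subtraction of the array medians -0.77 (adjusted p = 0.0461). It did not pass over all features (adjusted p = 0.112), among protein-coding genes alone (adjusted p = 0.0532) or in 5 of the 6 fits with an array left out (adjusted p from 0.108 to 0.173); without NC replicate 3 it did (adjusted p = 0.0282).

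OGA read 9.06, 8.80 and 9.10 in NC and 8.38, 8.89 and 8.92 with apoM. The first apoM array was the lowest, while the other 2 lay within the NC range, so the groups overlapped. Its log2 change was -0.25 (SE 0.19, 95% interval -0.68 to 0.17, adjusted p = 0.523). The feature under the older symbol MGEA5 was dimmer, at a mean of 5.47 against 8.86, and spread widely within NC, from 5.01 to 6.39, with a difference of -0.40 between the group means. The change of OGT was 0.48 below that of OGA (SE 0.19), with overlap between the groups (exact permutation p = 0.2, adjusted p = 0.3).

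CLK4 and CLK2 lay lower on all apoM arrays, while the arrays of CLK1 and CLK3 overlapped. CLK4 read 9.72, 9.73 and 9.65 in NC and 8.91, 9.31 and 9.01 with apoM. The NC arrays agreed closely (SD 0.05), apoM replicate 2 lay nearest to them, and 0.34 log2 units separated the groups. Its change was -0.62 (SE 0.16, 95% interval -0.99 to -0.26), or 1.54-fold lower, and did not pass the test (limma adjusted p = 0.0731). CLK2 read 10.53, 10.50 and 10.62 in NC and 10.11, 9.86 and 9.92 with apoM. It too lay lower on all apoM arrays, with a gap of 0.39, a change of -0.59 (SE 0.15, 95% interval -0.93 to -0.25) and an adjusted p of 0.0714. A processed copy, CLK2P1, has a feature of its own, at a mean of 6.07 against 10.26 for CLK2 and with a difference of 0.05 between the groups; whether probes of one read the other was not tested.

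CLK1, the best studied of the family, read 7.48, 7.29 and 7.64 in NC and 7.16, 6.92 and 7.82 with apoM. The apoM arrays spanned the whole NC range, with the lowest and the highest value of all 6 both in that group. Its change was -0.17 (SE 0.23, 95% interval -0.69 to 0.35, adjusted p = 0.756), and without apoM overexpression replicate 2 it was 0.02. CLK3 read 9.36, 9.36 and 9.97 in NC and 9.93, 9.53 and 9.87 with apoM. Its highest array of all was NC replicate 3, the groups overlapped, and the change was 0.21 (SE 0.21, 95% interval -0.25 to 0.68, adjusted p = 0.635). A feature under the related name CLK3P2 had a mean of 4.99 against 9.67 for CLK3, with a difference of 0.18 between the groups. Whether probes of one read the other was not tested here either.

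The differences in change within the CLK family were tested for all 6 of its pairs. The change of CLK2 was 0.80 below that of CLK3 (SE 0.19), with the per-array differences apart between groups (exact permutation p = 0.1, adjusted p = 0.3). The change of CLK1 was 0.42 above that of CLK2 (SE 0.29), also with the arrays apart and the same p-values. CLK4 and CLK3 differed by -0.84 (SE 0.34, exact permutation p = 0.2, adjusted p = 0.3) and CLK4 and CLK2 by -0.04 (SE 0.20, exact permutation p = 0.9). CLK1 differed by -0.38 from CLK3 and by 0.46 from CLK4 (exact permutation p = 0.3 each). In all, 3 of the 9 pairs of related genes had arrays that lay apart, and pairs that share a gene such as CLK2 are not independent. Over all single genes 24.4% had groups apart in either direction. No such share was computed over gene pairs.

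SRPK1 and SRPK2 overlapped between the groups. SRPK1, the widely expressed SR protein kinase, read 9.26, 8.95 and 9.06 in NC and 9.0045, 9.28 and 9.41 with apoM, a change of 0.15 (SE 0.17, 95% interval -0.24 to 0.53, adjusted p = 0.706). SRPK2 read 6.07, 6.33 and 6.17 in NC and 5.83, 5.74 and 6.14 with apoM, a change of -0.29 (SE 0.17, 95% interval -0.66 to 0.09, adjusted p = 0.394). In SRPK2 only the third apoM array reached into the NC range. The change of SRPK1 was 0.43 above that of SRPK2 (SE 0.20, exact permutation p = 0.2, adjusted p = 0.3).

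**Figure D2:**
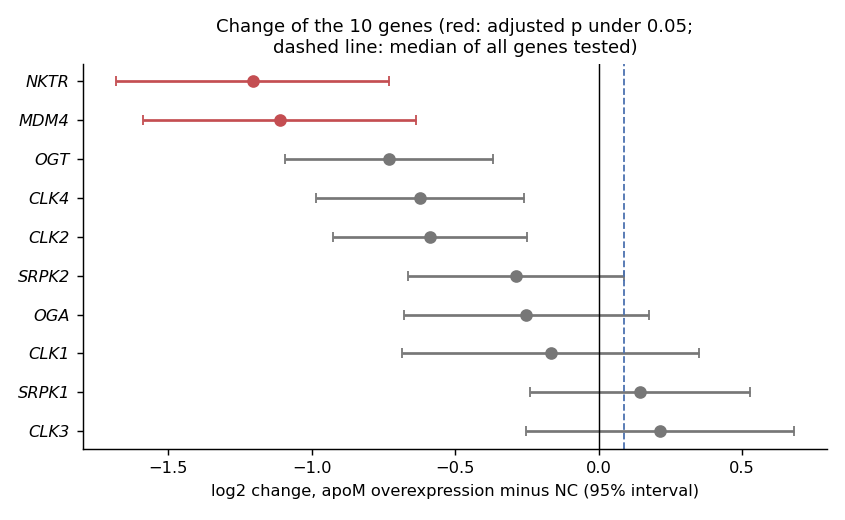
Log2 change (apoM overexpression minus NC) of the 10 genes with the 95% interval of the limma fit, 3 arrays a group. Red marks an adjusted p under 0.05 over all genes, and the dashed line is the median of all genes tested at 0.09; the intervals of NKTR, MDM4, OGT, CLK4 and CLK2 lie wholly below 0.

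The size of the difference varied with the array. As deviations from each gene's own mean, the median over the 10 genes was 0.24, 0.26 and 0.25 over the NC replicates. With apoM it was -0.35, -0.26 and -0.11. Below their own mean lay 9 of the 10 genes on apoM replicate 1, 8 on replicate 2 and 5 on replicate 3. On NC replicates 1 to 3 the counts were 1, 4 and 1. The same shares were not computed over all genes. Over all genes the medians ran from -0.08 to 0.05 and were higher with apoM, opposite to those of the 10 genes. Since the 10 genes were chosen with results known, this contrast is a description only.

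Change varied with gene span, which includes introns, over protein-coding genes in these data, so spans are given beside the changes; the part of span in the change of single genes was not tested beyond these values. The 5 genes whose groups lay apart span 10.6 kb (CLK2), 24.4 kb (CLK4), 41.7 kb (MDM4), 42.8 kb (OGT) and 48.1 kb (NKTR). The longest 2 of the set, SRPK1 at 88.1 kb and SRPK2 at 284.6 kb, had overlapping groups. For the 4823 brighter protein-coding genes (above the median level) that span 10 to 50 kb, the median change was 0.10, and 9.41% lay lower on all apoM arrays. For the 3470 that span 50 to 300 kb, the median change was -0.05, and 17.7% lay lower on all apoM arrays. With the trend on span removed over protein-coding genes, the changes were -1.24 for NKTR (adjusted p = 0.0322), -1.16 for MDM4 (adjusted p = 0.0367), -0.78 for OGT (adjusted p = 0.0426), -0.73 for CLK2 (adjusted p = 0.0409) and -0.71 for CLK4 (adjusted p = 0.0504). Removing the trend also takes out the typical change at each span. Where that is positive, as in the median of 0.10 for 10 to 50 kb, negative changes grow by construction. The larger values therefore say nothing on whether span plays a part, which was not tested.

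**Figure D3:**
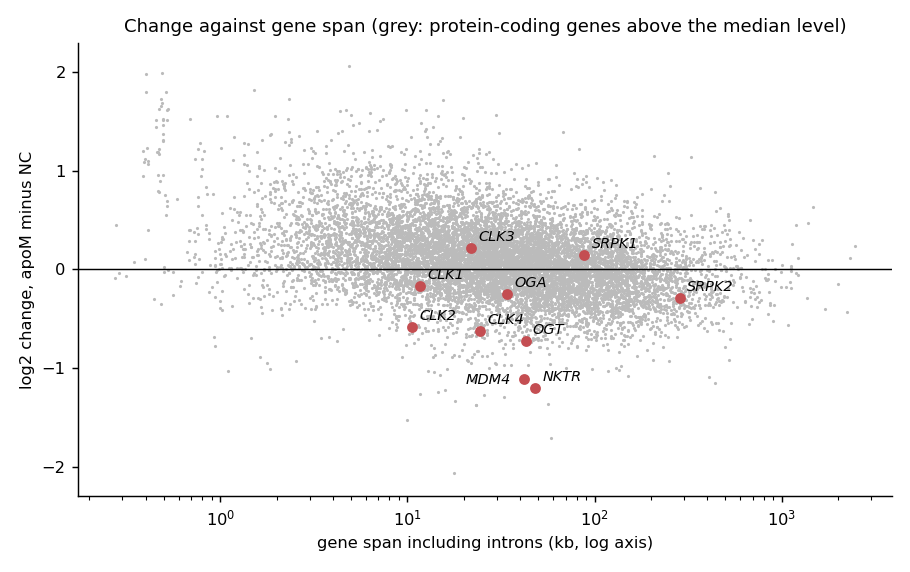
Log2 change against gene span including introns (kb, log axis) for protein-coding genes above the median level (grey) and the 10 genes (red, named). NKTR and MDM4 lie near the lower edge of the cloud for genes of 10 to 50 kb, while SRPK1 and SRPK2, the longest of the set, lie within it.

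A set of 7 lists of related genes was read beside the 10, by counts and medians only; they too were drawn up with earlier results known. In the list of RNA-processing genes with regulated introns or poison exons, 18 of 23 were measured. None passed the test, and 10 of the 18 lay lower on all apoM arrays and 0 higher, where 7.08% of all genes lay lower and 17.3% higher; the same shares hold beside the counts of the other lists. The median change was -0.25, against 0.09 over all genes. TIA1, a splicing and stress granule protein, read 10.84 ± 0.07 in NC and 10.12 ± 0.18 with apoM (SD, n = 3), a change of -0.71 (SE 0.16, limma adjusted p = 0.0528). RSRP1, an arginine- and serine-rich protein, had a change of -0.66, and CCNL2, a cyclin found in nuclear speckles, one of -0.62 (adjusted p = 0.100009 and 0.0999895). RBM6, an RNA-binding protein, had a change of -0.54 (adjusted p = 0.127).

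Next were SR and SR-like proteins, among them the substrates of CLK and SRPK kinases. Of 27 measured, none passed, 5 lay lower and 6 higher on all apoM arrays (7.08% and 17.3% of all genes), and the median change was -0.05. RBM39, a splicing coactivator, had a change of -0.63 (SE 0.18, limma adjusted p = 0.0865), PNN (pinin) one of -0.59 and SRSF4 one of -0.48. SRSF7 had a change of 0.58 (SE 0.20, adjusted p = 0.139). A further list held DYRK, HIPK, CDK and splicing kinases, and with them AKT1, GSK3A, GSK3B, CSNK2A1 and the topoisomerase TOP1. Of its 19 measured genes none passed, with 4 lower and 4 higher on all apoM arrays and a median of -0.03. DYRK3, which dissolves nuclear speckles in mitosis, had a change of 0.72 (adjusted p = 0.0742), and DYRK1A one of -0.56 (adjusted p = 0.132). DYRK4 was at 0.49 and HIPK4, dim at 3.06 in NC, at 0.42, or 0.27 with the span trend removed.

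The next list joined the hexosamine pathway, which makes the sugar donor of OGT, with partners and other enzymes of O-GlcNAc biology such as HCFC1, EOGT and the TET genes. None of its 14 measured genes passed, 1 lay lower and 2 higher on all apoM arrays, and the median was -0.08. GNPDA2 and GNPDA1, which turn glucosamine-6-phosphate back into fructose-6-phosphate, had changes of 0.56 each (adjusted p = 0.103 and 0.112). SLC35A3, a Golgi transporter of the donor, was at -0.40 and TET2 at -0.32. In the list of p53, its regulators and targets, 1 of 22 passed, where 2.06% of all genes were called and 0.357% were called lower. It was RPL5, which fell by 1.53 (SE 0.27, adjusted p = 0.0316). The RPL5 feature lay at the 81.4 percentile of level. It has no gene ID in the annotation, so which transcript it read is uncertain. Its call was lost over all features (adjusted p = 0.0780) and without NC replicate 1 or 2 or apoM overexpression replicate 1 or 2 (adjusted p from 0.113 to 0.129). TP53INP1 had a change of -0.56, RRM2B of 0.49 and CCNG1 of 0.57, and the median was -0.03. Of the 22, 2 lay lower and 4 higher on all apoM arrays. Among the 4 was RPL11, at the 99.7 percentile of level, with a change of 0.53 (limma adjusted p = 0.171).

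The other cyclophilins, relatives of NKTR, had a median change of 0.24, against 0.09 over all genes. Of 16 measured, none passed, and 6 lay higher and 2 lower on all apoM arrays, where 17.3% of all genes lay higher and 7.08% lower. PPIE, a cyclophilin of the spliceosome, had a change of 0.73 (SE 0.16, limma adjusted p = 0.0525), PPIH, of the tri-snRNP, one of 0.67, PPIB, of the endoplasmic reticulum, one of 0.62, and PPIL1 one of 0.46. As the mean of a gene's features the changes were 0.11 for PPIE and 0.35 for PPIB, and with quantile normalization 0.33 for PPIB and 0.29 for PPIL1. PPIG, which like NKTR carries a long arginine- and serine-rich tail, lay lower on all apoM arrays, with a change of -0.20, as did PPIL2, with -0.39; both were named after their values were seen. Among 10 nonsense-mediated decay and exon junction factors, 1 passed, where 2.06% of all genes were called and 1.7% were called higher. On all apoM arrays 2 of the 10 lay lower and 3 higher. The 1 called, EIF4A3, the core helicase of the exon junction complex, rose by 0.85 (SE 0.17, adjusted p = 0.0395). That call was lost over all features (adjusted p = 0.0919) and in 5 of 6 fits with an array left out, NC replicate 3 being the exception (adjusted p from 0.0639 to 0.135). RBM8A, of the same complex, had a change of 0.64, SMG8 one of 0.41 and SMG1, the kinase of UPF1, one of -0.43, or -0.70 as the mean of its features. The SMG1 feature was matched by symbol alone, so which transcript it read is uncertain. The list median was -0.03. With the span trend removed SMG8 was at 0.24.

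**Figure D4:**
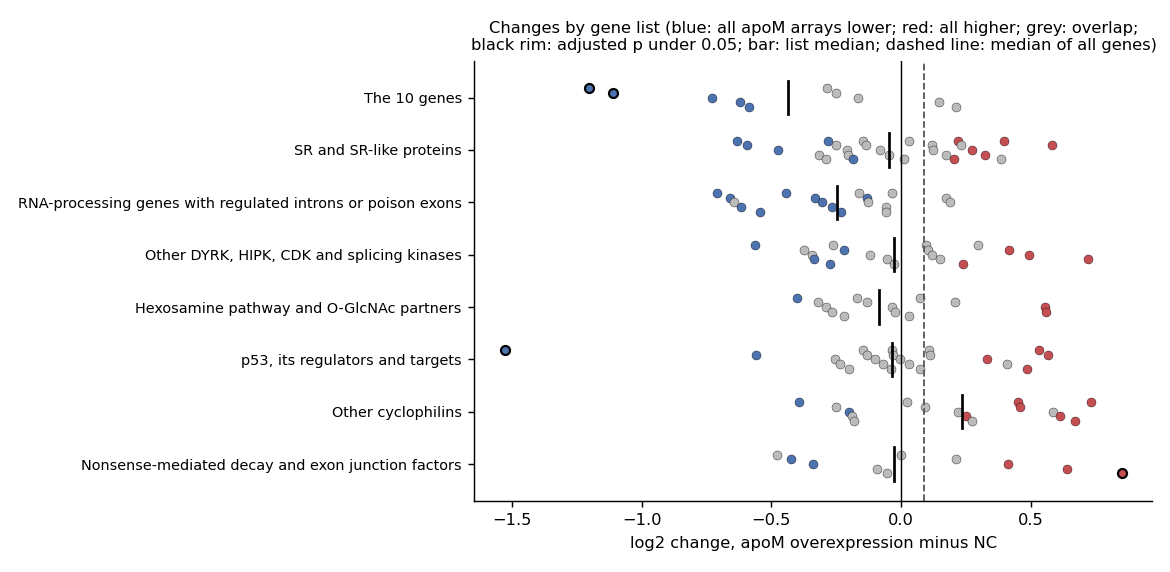
Log2 change of the 10 genes and of the measured members of 7 related lists, 1 point a gene. Blue points lay lower and red points higher on all apoM arrays, grey points overlapped, a black rim marks an adjusted p under 0.05, and vertical bars give list medians; the 10 genes and the list with regulated introns or poison exons have medians of -0.44 and -0.25.

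The protein-coding genes above the median level whose pattern over the 6 arrays was most like NKTR, by Pearson r among 10838 candidates, were ZNF514, OSBPL10 and STX16, with r of 0.995, 0.995 and 0.994. STX16, a SNARE of the trans-Golgi network, fell by 0.84 (SE 0.17, limma adjusted p = 0.0407). ZNF514, a zinc finger gene, had a change of -0.80 and OSBPL10, of the oxysterol-binding family, one of -0.53. The nearest to MDM4 were ATP11A, NPIPB3 and VEGFA, with r of 0.998, 0.998 and 0.997. NPIPB3, a member of a family of near-identical copies, fell by 1.38 and the growth factor VEGFA by 1.01 (adjusted p = 0.0245 and 0.0343), and the flippase ATP11A had a change of -0.61, or -0.25 as the mean of its features. The calls of STX16, NPIPB3 and VEGFA were lost over all features (adjusted p = 0.0972, 0.0721 and 0.0845); with an array left out, STX16 and VEGFA passed without NC replicate 3 alone, and NPIPB3 also without apoM overexpression replicate 3. The nearest to OGT were PIK3C2A, STAG1 and RPS6KB1, with r of 0.997, 0.995 and 0.994 and changes of -0.55, -0.26 and -0.56. Over 6 arrays in 2 groups such r values largely restate the group difference and the order of arrays within groups, and they carry no p.

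**Figure D5:**
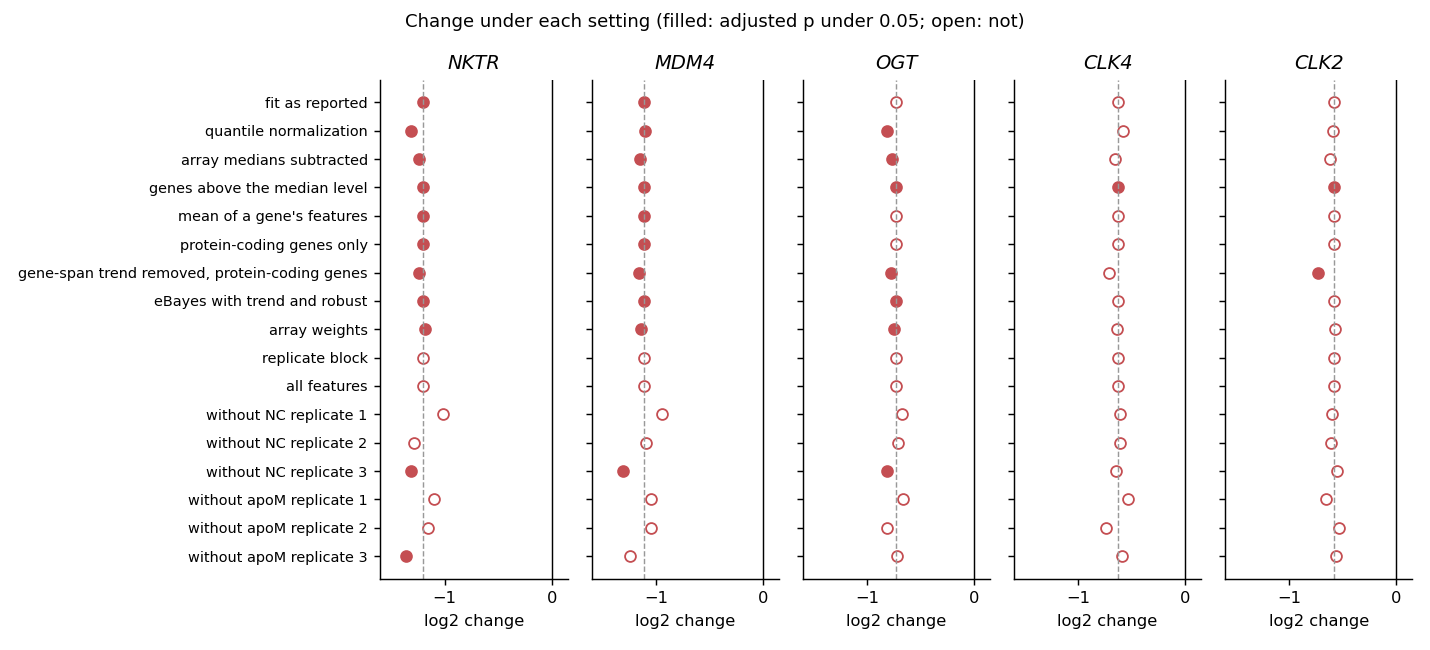
Log2 change of the 5 genes whose groups lay apart, in the fit as reported and under 16 other settings; filled points have an adjusted p under 0.05 and the dashed line marks the fit as reported. All points lie below 0 in these settings, and most fits with 1 array left out have open points. Several settings alter only the p-value, so their points keep the reported change.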

How the data were processed

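The 6 arrays were grouped from their titles. The authors deposited log2 values of 135750 features, made with Affymetrix Expression Console according to the submitters' processing notes. No source used here gives the version, normalization or build. The log2 scale was judged from the range of values, 2.00 to 19.93. Of the features, 36176 carry 1 gene symbol, 1119 several and 98455 none here; by gene ID 25516 and by symbol 9899 matched the GRCh38.p14 gene table, and 761 kept the file's name. The brightest feature per gene gave 33616 genes.

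Differences were fitted on all genes in R 4.3.3 with limma 3.58.1 (lmFit, eBayes, two-sided, Benjamini-Hochberg, threshold 0.05). Pairs of related genes were tested by exact permutation (scipy 1.17.1). The SE of a pair is from the pooled SD of its per-array differences, without limma. Figures used matplotlib 3.10.9. Other scalings, filters, variance models, a replicate block and left-out arrays were tried as alternatives. The named genes are the 10 members, APOM, MDM2, up to 4 genes of smallest p per list, any list gene past the threshold, and the 3 genes most like each of the 3 members with the largest changes. PPIG, PPIL2, RPL11, EPCAM, LGALS4, CLK2P1 and CLK3P2 were named outside this rule, after their values were seen. Members and lists were chosen with earlier results of these data known. On simulated arrays of 3 against 3 over 33616 genes, the fit recovered 0% of changes of 0.5, 76% of changes of 1 and 100% of changes of 2, with 10 false calls. The simulated noise was independent between genes and had no shifts of whole arrays, so these rates may not hold for the real arrays.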

Additional observations from a re-analysis of the deposited data

How the results depend on the processing

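Over all settings tried, NKTR, MDM4, OGT, CLK4 and CLK2 kept their negative sign. In several settings it could not move, since only the p-value differs from the fit as reported. These were genes above the median level, protein-coding genes, trend and robust eBayes, the replicate block and all features. The mean of a gene's features also left these genes unchanged. All settings reuse the same arrays. The number of genes called was 691; it was 1730 among genes above the median level, 195 among protein-coding genes, 241 with the gene-span trend removed from these, 1251 with trend and robust eBayes, 1679 with array weights, 50 with the replicate number as a block, 2 over all features and 2 to 2358 with 1 array left out. With the replicate block, NKTR at -1.21 (adjusted p = 0.0684) and MDM4 at -1.11 (adjusted p = 0.0779) missed the threshold, as they did with p adjusted over all features (0.0780 and 0.0881, same changes). Same-numbered arrays did not deviate together (correlations -0.07, 0.03 and -0.07), so the numbers were not taken as pairs. With 1 array left out the change ran from -1.36 to -1.02 for NKTR, -1.31 to -0.94 for MDM4, -0.81 to -0.66 for OGT and -0.43 to 0.0229 for CLK1, positive without apoM overexpression replicate 2. OGT passed with quantile normalization (-0.81), array medians subtracted (-0.77), genes above the median level (-0.73), the span trend removed (-0.78), trend and robust eBayes (-0.73), array weights (-0.75) and without NC replicate 3 (-0.81). OGT did not pass in the fit as reported (limma adjusted p = 0.0517), in the replicate block (adjusted p = 0.0946) or over all features (adjusted p = 0.112). Nor did it among protein-coding genes (adjusted p = 0.0532) or as the mean of its features (adjusted p = 0.0519). In 5 of the 6 fits with an array left out it also missed the threshold (adjusted p from 0.108 to 0.173). CLK2 passed among genes above the median level (-0.59) and with the span trend removed (-0.73), and CLK4 among genes above the median level (-0.62). The difference in change between CLK4 and CLK2 was 0.0152 with quantile normalization and ran from -0.20 to 0.12 with 1 array left out. Fits without an array rest on fewer arrays; the cause of these moves was not tested. EIF4A3, RPL5, STX16, NPIPB3 and VEGFA kept their sign in all settings and missed the threshold with the replicate block and over all features. With 1 array left out, EIF4A3, STX16 and VEGFA passed without NC replicate 3, and RPL5 and NPIPB3 without NC replicate 3 or apoM overexpression replicate 3, but none of the 5 without any other array.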
